A study of Mus musculus with 6 samples.

Results

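The mitochondrial genome supplied 37 of the 41457 genes in the count tables, namely every gene whose symbol begins with mt-. They comprised 13 protein genes, 2 ribosomal RNA (rRNA) genes and 22 transfer RNA (tRNA) genes, all on chromosome MT. The cells were double-negative (DN) thymocytes, early T cell precursors of the thymus without CD4 and CD8, and their poly(A)-selected RNA was sequenced. The paper describes the cells of both genotypes as freshly isolated. They had been enriched by magnetic removal of cells bearing either co-receptor. The 3 BirA libraries came from B6 mice that express the bacterial biotin ligase BirA from the *Rosa26* locus, and served as controls. The 3 Nc1Bio libraries came from mice with the same BirA allele and, in addition, a bacterial artificial chromosome (BAC) transgene that holds the whole murine *Nfatc1* locus in 1 copy and encodes a biotin-tagged form of the transcription factor NFATc1. The mice were 4 to 6 weeks old, of C57/B6 background and matched for sex and age. The transgene keeps the regulatory DNA of *Nfatc1* itself, and was not driven by a promoter particular to DN cells. Nothing in the labels says that the libraries came from separate animals, and the p-values below therefore measure the spread between these libraries, which may be technical.

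Mitochondrial DNA encodes subunits of complexes I, III and IV of the respiratory chain and of the ATP synthase, complex V, together with the rRNAs and tRNAs that translate them inside the organelle. All other subunits, complex II as a whole, and the enzymes that copy, transcribe and translate mitochondrial DNA are encoded in the nucleus and imported. Both strands of the circle are transcribed as long precursors, which are cut at the tRNAs that lie between the other genes, and most of the messenger RNAs (mRNAs) and rRNAs then receive short poly(A) tails. Early thymocytes divide rapidly, and the oxidative phosphorylation that these complexes carry out is among their sources of ATP.

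*Nfatc1*, the gene on the transgene, was at 152, 128 and 96.7 CPM (reads of a gene per 1000000 reads of its library) in BirA and 572, 596 and 550 CPM in Nc1Bio (adjusted p = 0.0141, edgeR quasi-likelihood test). The libraries held 11845952 to 15393763 gene reads that the tables term unique, and 16690167 to 21858618 total gene reads, which include the reads not termed unique. All 14 DN thymocyte markers were detected, with a summed level of 4858 to 6314 CPM of total gene reads in BirA and 4914 to 7576 in Nc1Bio. All 7 erythroid genes were present too, and took 20.1%, 11.7% and 7.57% of the total gene reads of BirA libraries 1, 2 and 3 and 14.9%, 6.74% and 26.9% of those of Nc1Bio libraries 1, 2 and 3. The 7 granulocyte markers summed to 288 to 6539 CPM in BirA and 258 to 3166 CPM in Nc1Bio, and the 7 B cell markers to 128 to 287 and 48.0 to 77.4 CPM. In such bulk samples, fewer cells of a type and less RNA per cell cannot be told apart.

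On the genome, the members lie almost end to end. Of the 36 pairs of neighbours, 9 overlap, 12 touch, and 14 of the other 15 are fewer than 10 bases apart. The 2 rRNA genes, 12 of the protein genes and 14 tRNA genes are on the plus strand, and *mt-Nd6* and 8 tRNA genes are on the minus strand. All coordinates of members are those of the tables, in GRCm38. The widest overlap on the same strand joins the 2 subunits of complex V. *mt-Atp8* (ENSMUSG00000064356, MT:7766-7969) ends 43 bases inside *mt-Atp6* (ENSMUSG00000064357, MT:7927-8607), and the 43 shared bases are in capitals in both sequences, of which the first is whole and the second its first 100 bases (GENCODE M1).

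mt-Atp8: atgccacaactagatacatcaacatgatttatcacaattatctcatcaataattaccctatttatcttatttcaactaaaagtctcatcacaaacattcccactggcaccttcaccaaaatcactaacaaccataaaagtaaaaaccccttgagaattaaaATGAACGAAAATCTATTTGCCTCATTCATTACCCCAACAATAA
mt-Atp6: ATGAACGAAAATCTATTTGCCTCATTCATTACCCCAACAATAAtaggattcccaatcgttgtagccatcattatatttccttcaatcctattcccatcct

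A read from the shared stretch belongs to both genes, and no source used here gives the rule by which such reads were counted. *mt-Nd4l* (ENSMUSG00000065947, MT:9877-10173) and *mt-Nd4* (ENSMUSG00000064363, MT:10167-11544), both subunits of complex I, share 7 bases in the same way, shown in capitals at the end of the former and the start of the latter.

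mt-Nd4l: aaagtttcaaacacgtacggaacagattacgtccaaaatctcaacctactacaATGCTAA
mt-Nd4: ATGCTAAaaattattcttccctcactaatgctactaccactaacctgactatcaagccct

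On opposite strands, *mt-Nd5* and *mt-Nd6* overlap by 14 bases and *mt-Co1* and *mt-Ts1* by 3. Whether the counting used strand is not stated, so reads from a gene and from RNA that runs across it on the other strand cannot be told apart here.

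The share of a library taken by the 37 genes varied more among the BirA libraries than between the genotypes. Of the unique gene reads, they took 7.07%, 5.09% and 3.72% in BirA libraries 1, 2 and 3 and 4.68%, 5.24% and 5.23% in Nc1Bio libraries 1, 2 and 3. The means were 5.29% ± 1.69 (SD, n = 3) in BirA and 5.05% ± 0.318 (SD, n = 3) in Nc1Bio. All 3 Nc1Bio libraries thus lay inside the BirA range. Of the total gene reads, the shares were 5.30%, 4.09% and 3.05% in BirA and 3.64%, 4.36% and 3.60% in Nc1Bio, again inside the BirA range. The difference of the means, Nc1Bio minus BirA, was -0.241 percentage points in unique and -0.275 in total gene reads. It took the opposite sign without BirA replicate 1, at 0.648 and 0.303 points. As a sum over chosen genes, the share was described and not tested.

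**Figure D1:**
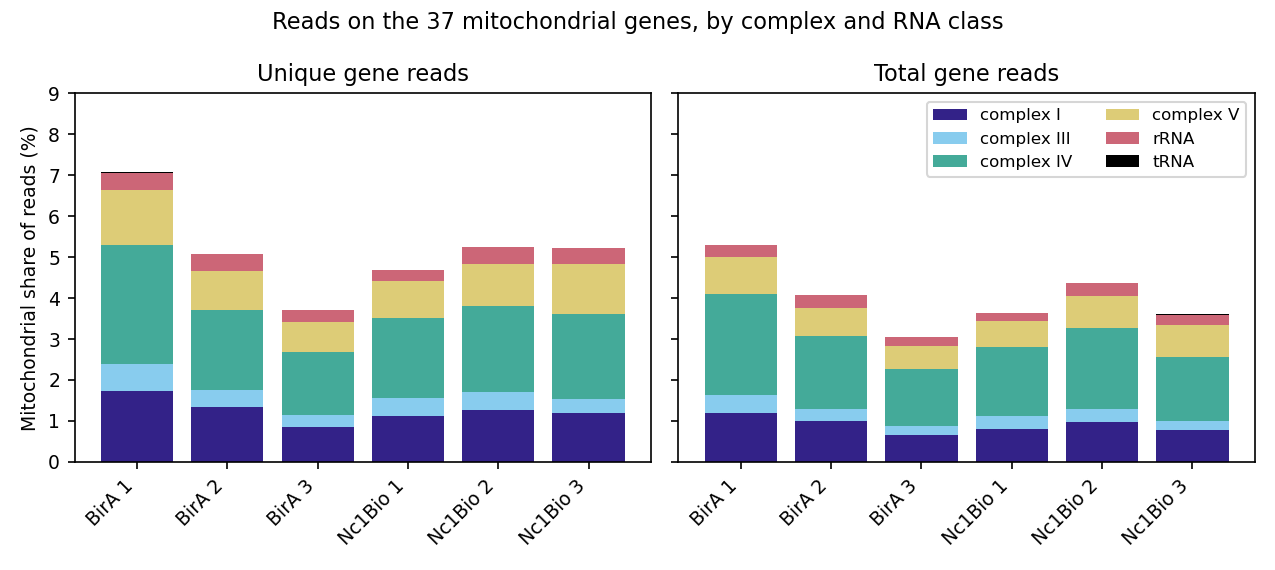
Each bar is 1 library, and its height is the percentage of that library's unique (left) or total (right) gene reads on mitochondrial genes, stacked by respiratory complex and RNA class. BirA replicate 1 stands highest at 7.07% and 5.30%, BirA replicate 3 lowest at 3.72% and 3.05%, and the 3 Nc1Bio libraries lie between them.

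Within BirA, the library with the largest mitochondrial share also had the largest erythroid share and the one with the smallest the smallest. In Nc1Bio library 3 an erythroid share of 26.9% stood beside a mitochondrial share of 3.60%. The erythroid reads are part of the total on which that share rests. With the erythroid genes left out of the total gene reads, the mitochondrial shares were 6.63%, 4.63% and 3.30% in BirA and 4.29%, 4.68% and 4.93% in Nc1Bio. The Nc1Bio libraries still lay inside the BirA range. Among them library 3, with the largest erythroid share, was then the highest, and library 2, with the smallest, stood in the middle. A link between the erythroid and mitochondrial shares was not tested.

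Class by class, the make-up of the mitochondrial reads differed between the genotypes by less than the larger SD of the 2 groups in total gene reads. In unique gene reads the tRNA class was the exception, at 0.0560% ± 0.00442 (SD, n = 3) in BirA and 0.0629% ± 0.00439 in Nc1Bio. Protein genes held 93.1% ± 1.27 (SD, n = 3) of the mitochondrial total gene reads in BirA and 93.4% ± 1.01 (SD, n = 3) in Nc1Bio. Complex IV alone, with 3 genes, held 45.2% ± 1.47 and 45.1% ± 1.499, complex I with 7 genes 22.6% ± 1.49 and 21.9% ± 0.524, complex V with 2 genes 17.4% ± 0.695 and 19.1% ± 2.39, and complex III with its single mitochondrial gene 7.82% ± 0.707 and 7.39% ± 1.04. The 2 rRNAs, which carry only short A-tails, came to 6.84% ± 1.28 and 6.51% ± 1.01, and the 22 tRNA genes to 0.107% ± 0.00694 and 0.108% ± 0.00814. These shares reflect what poly(A) selection and library preparation retain, and not the abundance of rRNA and tRNA in the cell.

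Per length, the protein genes of complexes IV and V stood highest. On the scale of CPM of total gene reads per kilobase of gene, averaged over the 6 libraries, *mt-Atp6* was at 8532, *mt-Co3* at 7154, *mt-Atp8* at 7113, *mt-Co2* at 6226 and *mt-Co1* at 5332. *mt-Nd1* followed at 3189, *mt-Cytb* at 2693 and *mt-Nd3* at 1816. The remaining complex I genes were lower, with *mt-Nd2* at 1356, *mt-Nd4* at 1282, *mt-Nd4l* at 878, *mt-Nd5* at 782 and *mt-Nd6* at 762, as were *mt-Rnr2* at 1201 and *mt-Rnr1* at 782. Many neighbours in this order did not differ beyond their spread: *mt-Co3* lay at 7088 ± 1058 (SD, n = 3) in BirA and *mt-Atp8* at 7030 ± 2074. By contrast, *mt-Co1* and *mt-Nd1* did not overlap within a library in any of the 6, the lowest *mt-Co1* value being 3748 in BirA library 3, where *mt-Nd1* was at 2359. Reads in the stretches that overlapping genes share bear on these levels.

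Of the 37 genes, 19 had enough unique gene reads to be tested, which included all 13 protein genes, both rRNA genes and the tRNA genes *mt-Tl1*, *mt-Ta*, *mt-Tc* and *mt-Te*. None was called between the genotypes by edgeR at an adjusted p of 0.05, where 0.00818% of the 12224 genes tested were called, that is *Nfatc1* alone. None of the 19 had an unadjusted p under 0.05, against 12.0% of all genes. In total gene reads, 22 mitochondrial genes were tested, with *mt-Tn*, *mt-Ty* and *mt-Ts1* added, and again 0 were called and 0 had an unadjusted p under 0.05, beside 0.00764% and 11.5% of all 13095 genes. DESeq2 called 0 mitochondrial genes in either column, while of all genes it called 2.48% in unique gene reads (0.32% higher and 2.16% lower in Nc1Bio) and 2.59% in total gene reads (0.34% higher and 2.25% lower). Likewise, limma-voom called 0 mitochondrial genes in either. The groups did not overlap for 0 of the 19 genes, against 18.4% of all genes.

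**Figure D2:**
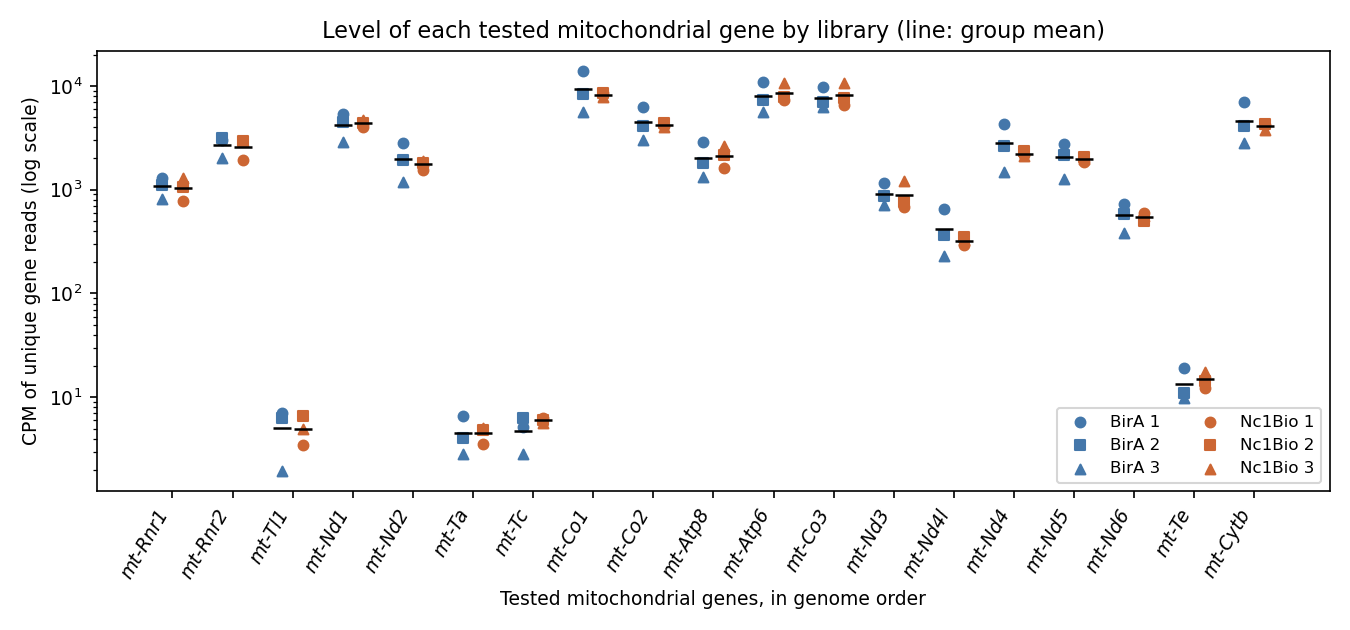
Points give the CPM of unique gene reads of the 19 tested mitochondrial genes in each library on a log axis, with TMM-scaled library sizes; blue marks BirA, orange Nc1Bio, the symbol the replicate and the black line the group mean. For most genes the BirA points span a wider range than the Nc1Bio points, with BirA 1 on top and BirA 3 at the bottom, while the group means nearly coincide.

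Complex I, the NADH dehydrogenase, was represented by its 7 mitochondrial genes, whose log2 fold changes of Nc1Bio over BirA in unique gene reads ran from -0.36 to 0.05 with a median of -0.08 (all genes tested, -0.003). *mt-Nd4l* and *mt-Nd4*, which encode membrane subunits of its proton-pumping arm, had the lowest values of the 15 protein and rRNA genes. *mt-Nd4* was at 4318, 2607 and 1475 CPM in BirA and 2155, 2336 and 2106 CPM in Nc1Bio. The group means were 2800 ± 1431 (SD, n = 3) and 2199 ± 121 CPM, with a log2 fold change of -0.35 (95% interval -1.10 to 0.41, adjusted p = 0.702, edgeR). The 3 Nc1Bio values lay close together and between the lowest and the highest BirA library. *mt-Nd4l* followed the same course, at 649, 369 and 230 CPM in BirA and 295, 348 and 328 CPM in Nc1Bio, with a log2 fold change of -0.36 (95% interval -1.11 to 0.38) and the smallest adjusted p of the 19 genes, 0.689.

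*mt-Nd2* (MT:3914-4951) stood at 2790, 1951 and 1193 CPM in BirA and 1547, 1806 and 1905 CPM in Nc1Bio, with a log2 fold change of -0.17. *mt-Nd5* (MT:11742-13565), the longest of the protein genes at 1824 bases, stood at 2770, 2177 and 1261 CPM in BirA and 1830, 2048 and 1992 CPM in Nc1Bio (log2 fold change -0.08). *mt-Nd1* (MT:2751-3707), at the junction between the membrane arm and the peripheral arm of the complex, stood at 5312, 4522 and 2859 CPM and 4049, 4406 and 4694 CPM (log2 fold change 0.05). In all 3 genes the Nc1Bio values fell inside the BirA range. *mt-Nd3* (MT:9459-9806) departed from this, at 1160, 872 and 717 CPM in BirA and 679, 765 and 1209 CPM in Nc1Bio, where the lowest and the highest library were both Nc1Bio (log2 fold change -0.05). *mt-Nd6* (MT:13552-14070), the only protein gene on the minus strand, was at 733, 585 and 385 CPM in BirA and 593, 498 and 556 CPM in Nc1Bio (log2 fold change -0.05). Among the BirA libraries it was highest in library 1 and lowest in library 3, the order seen in the 6 other genes of complex I. Reads of *mt-Nd6* and of plus-strand RNA that runs across it cannot be told apart here, so these values may not be those of *mt-Nd6* alone.

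In complex III, which passes electrons to cytochrome c, *mt-Cytb* (MT:14145-15288) is the single mitochondrial gene and encodes cytochrome b. It was at 6924, 4107 and 2813 CPM in BirA and 4160, 4304 and 3777 CPM in Nc1Bio. The log2 fold change was -0.18 (95% interval -0.83 to 0.48, adjusted p = 0.835, edgeR), with every Nc1Bio library inside the BirA range.

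Complex IV, the cytochrome c oxidase, has its catalytic core encoded by *mt-Co1*, *mt-Co2* and *mt-Co3*. *mt-Co1* (MT:5328-6872) had the most reads of all members and was at 13980, 8319 and 5570 CPM in BirA and 8537, 8461 and 7773 CPM in Nc1Bio. Its coefficient of variation (CV, the SD as a percentage of the mean) was 46.2% in BirA and 5.10% in Nc1Bio, and its log2 fold change -0.17 (95% interval -0.83 to 0.49). *mt-Co2* (MT:7013-7696), which receives the electrons from cytochrome c, was at 6250, 4062 and 3009 CPM and 4125, 4374 and 3975 CPM, with CVs of 37.2% and 4.85% and a log2 fold change of -0.09. *mt-Co3* (MT:8607-9390) behaved otherwise, at 9827, 7061 and 6196 CPM in BirA and 6581, 7596 and 10580 CPM in Nc1Bio. Its highest library was Nc1Bio 3, its CVs were 24.7% and 25.2%, and its log2 fold change was 0.10.

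Complex V, the ATP synthase, draws on *mt-Atp6*, which forms part of its proton channel, and *mt-Atp8*. *mt-Atp6* was at 11000, 7343 and 5662 CPM in BirA and 7249, 7779 and 10620 CPM in Nc1Bio (log2 fold change 0.10). *mt-Atp8* was at 2866, 1806 and 1339 CPM and 1630, 2142 and 2612 CPM (log2 fold change 0.09). Both genes were highest in BirA library 1 and, among the Nc1Bio libraries, in library 3.

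The rRNAs of the small and large mitochondrial ribosomal subunits are encoded by *mt-Rnr1* (MT:70-1024) and *mt-Rnr2* (MT:1094-2675). *mt-Rnr1* was at 1302, 1104 and 820 CPM in BirA and 776, 1052 and 1287 CPM in Nc1Bio (log2 fold change -0.05). *mt-Rnr2* was at 3020, 3137 and 1998 CPM and 1914, 2917 and 2961 CPM (log2 fold change -0.07). The spread was as wide in Nc1Bio as in BirA for both, with CVs of 22.5% and 24.6% for the former and 23.0% and 22.8% for the latter, and the lowest library was Nc1Bio 1.

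**Figure D3:**
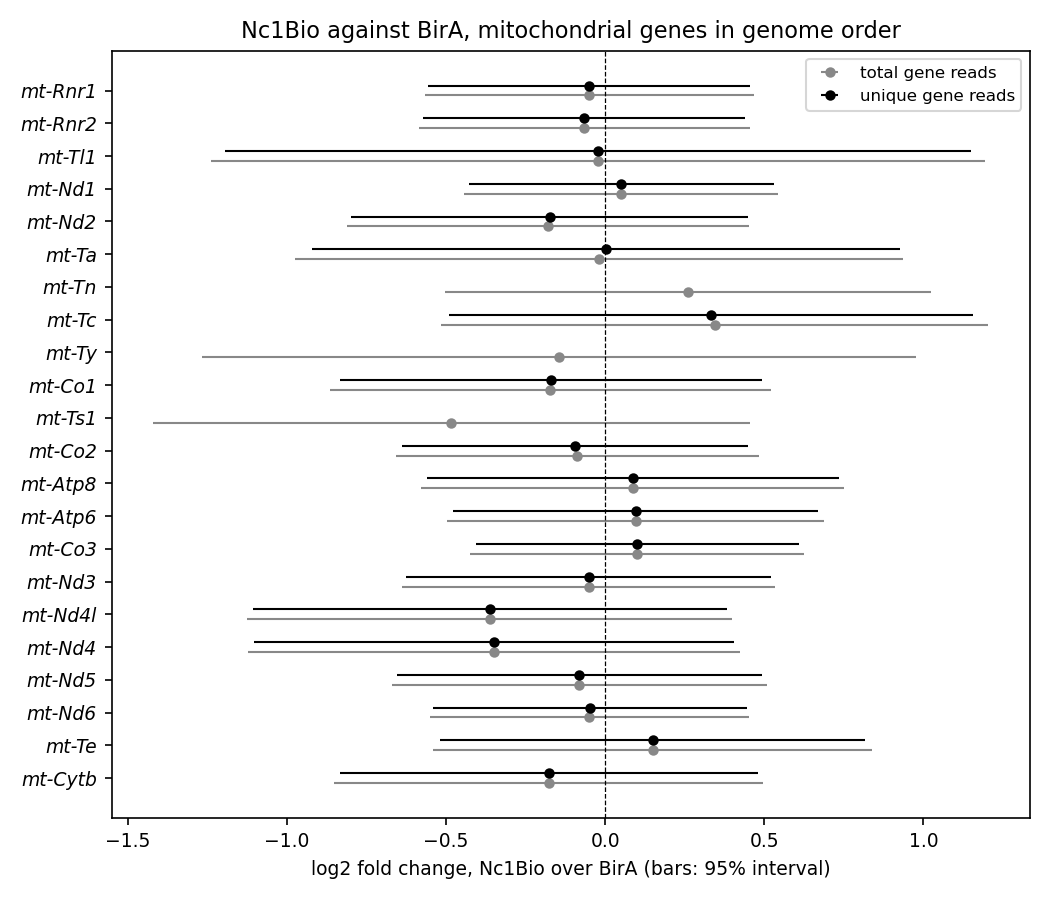
Points are log2 fold changes of Nc1Bio over BirA and bars their 95% intervals from edgeR, for unique (black) and total (grey) gene reads, with genes in genome order. All intervals span 0, and the widest in either column is that of *mt-Tl1*.

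The 95% intervals give the sizes of change compatible with these 6 libraries. For *mt-Nd1* the interval ran from -0.43 to 0.53 on the log2 scale, for *mt-Co3* from -0.41 to 0.61, and for *mt-Nd4l* from -1.11 to 0.38.

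The direction of the estimates hung on single BirA libraries. Of the 13 protein genes, 4 had a log2 fold change above 0 with all libraries (median -0.08). Without BirA replicate 1, all 13 were above 0 with a median of 0.23, and without BirA replicate 3, 0 of 13 were, with a median of -0.31. Without Nc1Bio replicate 3, 1 of 13 was above 0, with a median of -0.12. No mitochondrial gene was called in any of these fits, and unadjusted p-values under 0.05 occurred only without BirA replicate 3, for 4 genes in each column, all lower in Nc1Bio.

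The libraries of BirA differed far more in these genes than those of Nc1Bio. Over the 19 genes tested, the median CV was 37.2% in BirA and 10.5% in Nc1Bio, whereas over all genes tested it was 14.6% and 13.7%. The CV was larger in BirA for 16 of the 19 genes (84.2%), against 53.8% of all genes. BirA library 1 was the highest of the 6 libraries for 15 of the 19 genes, against 21.3% of all genes, and BirA library 3 was the lowest for 16 of the 19, against 13.1%. All 3 Nc1Bio values lay inside the BirA range for 15 of the 19 genes, compared with 17.1% of all genes. The 4 exceptions were *mt-Co3*, *mt-Nd3*, *mt-Rnr1* and *mt-Rnr2*. In total gene reads, 15 of 22 genes had all Nc1Bio values inside the BirA range, beside 17.2% of all genes. These genes are transcribed together and their reads came from the same libraries, so they are not independent of each other. BirA library 1 also held 20.1% erythroid reads and library 3 the fewest in its group, 7.57%, and the part of the erythroid reads in this spread was not tested. In the *mt-Co1* gene, BirA library 1 exceeded BirA library 3 by 2.51-fold, in *mt-Nd4* by 2.93-fold, and in *mt-Rnr2* by 1.51-fold.

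The genes did not all scale together, as was seen when each was divided by the sum of the mitochondrial reads of its own library. *mt-Co1* and *mt-Cytb* kept the steadiest ratio of the 105 pairs among the 15 protein and rRNA genes, a ranking made after the values had been seen. Their ratio in total gene reads varied by 1.04-fold from the lowest to the highest library, while the median over the pairs was 1.54-fold. Per base, *mt-Cytb* stood at 0.502, 0.502 and 0.518 of *mt-Co1* in BirA and 0.499, 0.514 and 0.498 in Nc1Bio, although many other genes lie between them. Next came *mt-Nd4l* and *mt-Nd4*, the overlapping pair shown above, at 1.14-fold. The overlapping *mt-Atp8* and *mt-Atp6* varied by 1.22-fold and the rRNA pair by 1.23-fold.

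The most variable ratio was that of *mt-Co3* to *mt-Nd4*, at 2.21-fold. *mt-Co3* per base was 1.04, 1.26 and 1.66 times *mt-Co1* in BirA and 1.15, 1.32 and 2.04 times *mt-Co1* in Nc1Bio. It was thus highest in replicate 3 of both genotypes, and the groups overlapped. In the same way, *mt-Nd4* per base was 0.940, 0.755 and 0.520 of *mt-Nd3* in BirA and 0.802, 0.771 and 0.440 in Nc1Bio, lowest in replicate 3 of both. Relative to the mean of the 6 libraries, Nc1Bio library 3 gave 1.19 to 1.25 times the usual share of mitochondrial reads to *mt-Atp8*, *mt-Atp6*, *mt-Co3* and *mt-Nd3*, which are neighbours on the genome. In the same library *mt-Co1* was at 0.831, *mt-Co2* at 0.867, *mt-Nd4* at 0.805 and *mt-Cytb* at 0.819 of the mean share. BirA library 3 gave 1.13 and 1.16 times the mean share to *mt-Co3* and *mt-Nd3*. The erythroid shares of these 2 libraries were the highest (26.9%) and among the lowest (7.57%) of the 6. No genotype difference in the make-up was tested, since the ratios were chosen after their values were seen.

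**Figure D4:**
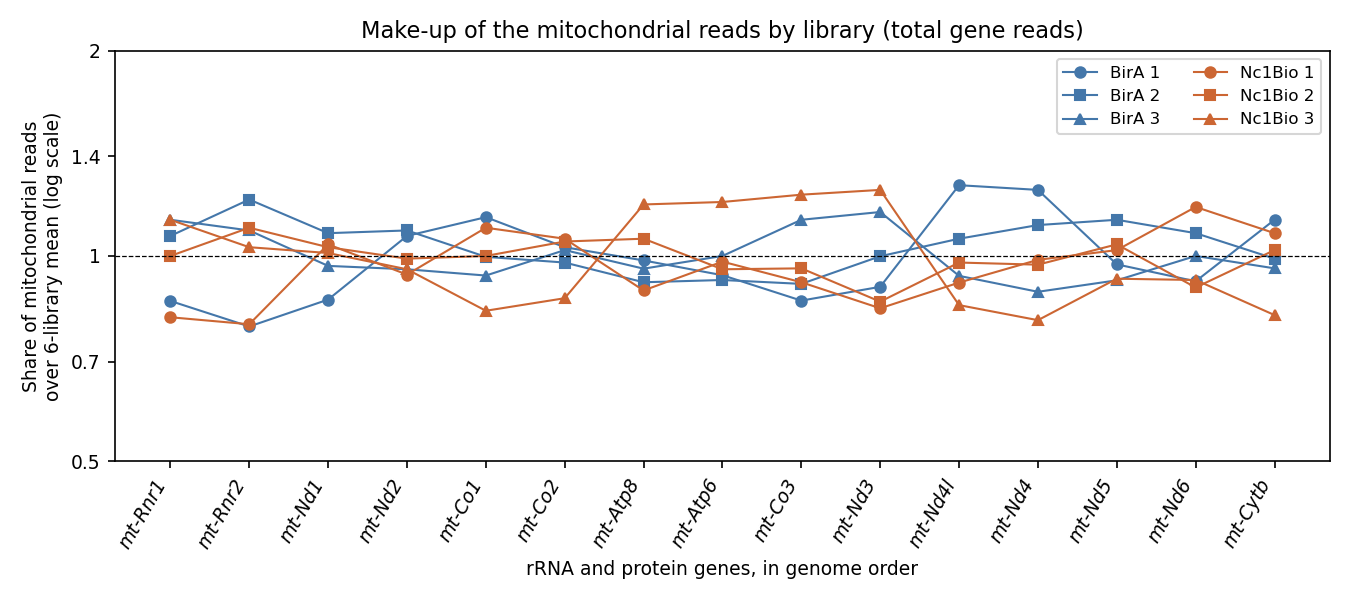
Each line is 1 library and gives the share of its mitochondrial total gene reads on each rRNA and protein gene, divided by the mean share over the 6 libraries (log axis, 1 is the mean). Nc1Bio 3 rises to between 1.19 and 1.25 from *mt-Atp8* to *mt-Nd3* and falls to 0.805 at *mt-Nd4*, and BirA 1 reaches 1.27 at *mt-Nd4l*.

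The tRNA genes yielded few reads. Together the 22 genes held 5035 total gene reads over the 6 libraries, and 89.2% of these lay on the 8 genes of the minus strand. The minus-strand genes had a median of 407 reads over the 6 libraries (31 to 1608), and 6 of the 8 exceeded 100. The 14 plus-strand genes had a median of 5 reads (0 to 417), and *mt-Tl1* alone exceeded 100. No read was counted on *mt-Tf*, *mt-Th* or *mt-Ts2*, which allows up to 3 reads in each library. The split by strand was noticed after the values were seen and was not tested. As background, RNA that runs across a minus-strand tRNA gene from the plus strand holds no tRNA there.

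The 3 tRNA genes with the most reads were *mt-Ts1*, *mt-Te* and *mt-Tn*, all on the minus strand. *mt-Ts1* (MT:6870-6938), a serine tRNA gene, lies directly past the end of *mt-Co1* on the opposite strand and held 31.9% of all tRNA reads. It had 541, 252 and 193 total gene reads in the BirA libraries and 224, 231 and 167 in those of Nc1Bio, or 27.8, 11.5 and 9.54 CPM and 13.2, 12.5 and 9.16 CPM. The log2 fold change was -0.48 (95% interval -1.42 to 0.45, adjusted p = 0.677, edgeR), and BirA library 1 stood apart as the highest. The mRNA of mouse *mt-Co1* is known to extend across the antisense sequence of this tRNA, and with counting of unknown strand such reads and those of the tRNA cannot be told apart. *mt-Te* (MT:14071-14139), a glutamate tRNA gene between *mt-Nd6* and *mt-Cytb*, was at 19.3, 11.1 and 9.85 CPM of unique gene reads in BirA and 12.4, 14.5 and 17.7 CPM in Nc1Bio (log2 fold change 0.15).

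*mt-Tn* (MT:5089-5159), *mt-Tc* (MT:5192-5257), *mt-Ta* (MT:5018-5086) and *mt-Ty* (MT:5260-5326) form the cluster of minus-strand tRNA genes between *mt-Nd2* and *mt-Co1*. In total gene reads they were at 4.52 ± 1.53, 3.40 ± 1.26, 3.25 ± 1.37 and 2.41 ± 0.807 CPM in BirA (SD, n = 3) and 5.42 ± 0.425, 4.31 ± 0.222, 3.21 ± 0.583 and 2.18 ± 0.9753 CPM in Nc1Bio. *mt-Tc* had the highest log2 fold change of all members tested in both columns, 0.33 in unique gene reads (95% interval -0.49 to 1.16, adjusted p = 0.745, edgeR). This was 0.07 without BirA replicate 3 and 0.595 without BirA replicate 2, and that of *mt-Tn*, 0.26 in total gene reads, was 0.0255 and 0.516. *mt-Tl1* (MT:2676-2750), a leucine tRNA gene that joins *mt-Rnr2* to *mt-Nd1*, was at 6.99, 6.33 and 1.94 CPM of unique gene reads in BirA and 3.49, 6.59 and 4.93 CPM in Nc1Bio. The other 12 tRNA genes, which had reads but too few for a test in either column, held between 1 and 46 total gene reads over the 6 libraries.

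Unique and total gene reads were the same for most members but not for a stretch around *mt-Co1*. Over the 6 libraries, 24.6% of the *mt-Co1* reads, 28.4% of the *mt-Co2* reads and 6.36% of the *mt-Nd2* reads were not unique, and *mt-Tw*, *mt-Tn*, *mt-Ty*, *mt-Ts1* and *mt-Td* had reads but no unique read. For 8 of the other 10 protein genes every read was unique, and *mt-Atp8* and *mt-Atp6* had 1 read each that was not. Nuclear DNA holds copies of mitochondrial DNA, and the 13 protein transcripts were therefore searched for in the mouse genome NCBIM37, an earlier build than that of the tables. A copy of the whole of *mt-Co1* was found at chr2:22443623-22445167, on the minus strand, inside an intron of *Myo3a*, a myosin gene of the inner ear. It matched at 97.6% identity, with 37 differing bases over 1545. The first 180 bases of the gene and of this copy are shown with the 3 differing bases in capitals, as they show how a read of the trimmed length of 49 bases can match both or only one of them.

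mt-Co1: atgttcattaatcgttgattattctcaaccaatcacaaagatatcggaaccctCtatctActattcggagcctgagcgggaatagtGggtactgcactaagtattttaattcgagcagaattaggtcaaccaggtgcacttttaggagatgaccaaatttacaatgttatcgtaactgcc
Copy in Myo3a: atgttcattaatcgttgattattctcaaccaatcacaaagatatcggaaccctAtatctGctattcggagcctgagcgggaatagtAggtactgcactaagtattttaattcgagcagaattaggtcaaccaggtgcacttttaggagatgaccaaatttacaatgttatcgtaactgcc

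The longest stretch without a difference was 148 bases. Of all stretches of 49 bases in *mt-Co1*, 28.1% had an exact copy inside *Myo3a*, as had 35.8% of those in *mt-Co2* and 8.48% of those in *mt-Nd2*. These are the 3 protein genes with a sizeable share of non-unique reads. A further match to *mt-Co1*, over 656 bases at 90.7% identity, lay in an intron of *Stxbp4* on chromosome 11. The other 10 protein genes had 0% of their stretches inside *Myo3a*. *Myo3a* itself had 2862 to 5386 total gene reads in BirA and 2819 to 3443 in Nc1Bio, with 0 reads in its exons in any library. Its reads amounted to 2.08 to 2.71 for every 100 total gene reads on *mt-Co1*. Without regard to depth, they were most in BirA library 1, as those of *mt-Co1* were. They were fewest in Nc1Bio library 1, at 2819, and next in BirA library 3, at 2862, whereas those of *mt-Co1* were fewest in BirA library 3. BirA library 3 had more unique gene reads, 13767665 against 11845952. Relative to that depth, its *Myo3a* reads were thus fewer than those of Nc1Bio library 1. All reads counted on *Myo3a* were unique in every library, so none of them was among the non-unique reads. Whether these copies account for the non-unique reads of *mt-Co1*, *mt-Co2* and *mt-Nd2* was not tested, and copies of the tRNA genes were not searched for.

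For protein genes without an exact stretch in *Myo3a*, copies elsewhere in the genome did not go with a loss of unique reads. At chr1:24618374-24623027 of NCBIM37, where adjoining matches to *mt-Nd4* and to the end of *mt-Co1* bound the copied region, *mt-Co2*, *mt-Atp8*, *mt-Atp6*, *mt-Co3* and *mt-Nd4l* matched at 100% over their whole length and *mt-Nd3* at 99.7%. Exact copies anywhere in the nuclear genome existed for 100% of the 49-base stretches of *mt-Atp6* and *mt-Co3* and 62.3% of those of *mt-Nd4*, yet their reads were counted as unique. Of the genes of GENCODE M1 that contain a whole match there, none was found by symbol in the count tables. *Gm10222*, with an exon over the match to *mt-Nd4l*, was such a gene. Genes that overlap a match only in part were not looked for. Measured against NCBIM37, unique gene reads were thus not limited to reads with a single match. The choice of column hardly moved the comparison of the genotypes, since *mt-Co1*, *mt-Co2* and *mt-Nd2* had log2 fold changes of -0.17, -0.09 and -0.17 in unique and -0.17, -0.09 and -0.18 in total gene reads.

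Nuclear genes whose products work with these 13 proteins were compared in the same fit. Of the 76 nuclear subunit genes of complexes I to V that were tested, 0 were called, but 71 (93.4%) had a log2 fold change above 0, against 6061 of all 12224 genes. The medians were 0.12 for complex I (33 of 36 above 0), 0.15 for complex II (4 of 4), 0.11 for complex III (8 of 9), 0.13 for complex IV (10 of 11) and 0.12 for complex V (16 of 16). The mitochondrial genes of complexes I, III and IV had medians of -0.08, -0.18 and -0.09 and those of complex V 0.09. Without BirA replicate 1, 70 of the 76 nuclear genes were above 0, against 49.3% of all genes. The lowest count in any fit that left out 1 library was 59, without BirA replicate 2, against 50.4% of all genes. These fits share most of their libraries, and the genes were read from the same libraries. The counts are therefore not independent, and a steady sign lends no support. The difference between nuclear and mitochondrial genes was not tested, and a list of such genes is described here by its counts only.

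**Figure D5:**
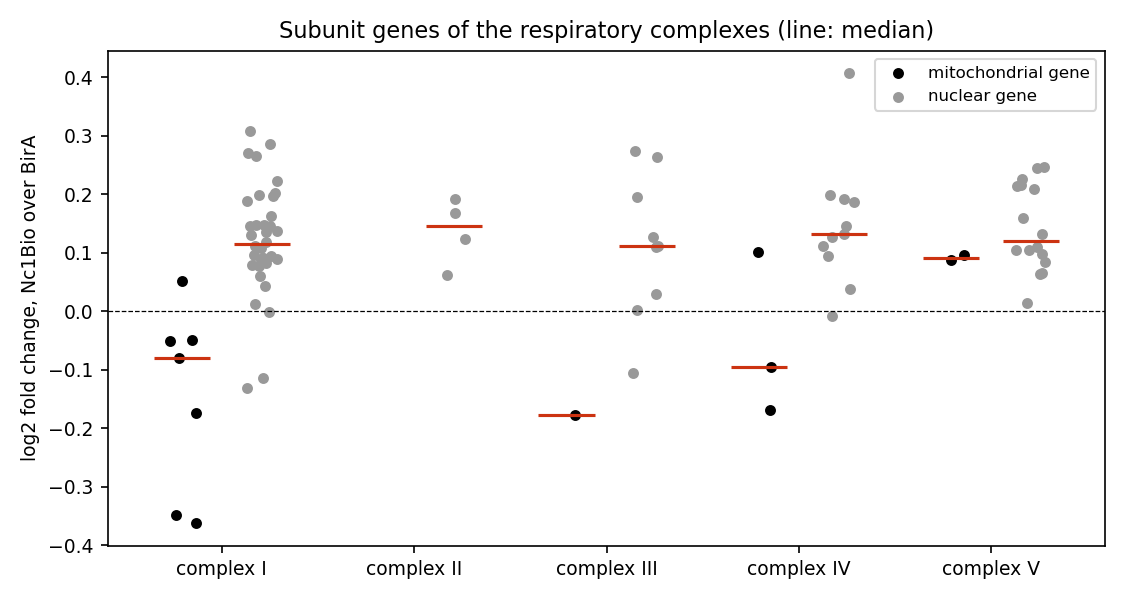
Each point is the log2 fold change of Nc1Bio over BirA in unique gene reads of 1 subunit gene, black for mitochondrial and grey for nuclear genes, by respiratory complex, with the median as a red line. Complex II has no mitochondrial gene. The nuclear medians lie between 0.11 and 0.15, and the mitochondrial medians between -0.18 and 0.09.

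By name, the nuclear subunit genes with the lowest p were *Ndufa7*, *Ndufs4* and *Ndufa12* in complex I, *Sdhd*, *Sdhc* and *Sdhb* in complex II, *Cyc1*, *Uqcr10* and *Uqcrc1* in complex III, *Cox7a2*, *Cox7c* and *Cox7b* in complex IV and *Atp5g2*, *Atp5g1* and *Atp5b* in complex V, with adjusted p of 0.319 or more. *Cyc1*, which encodes cytochrome c1 and thus a direct partner of *mt-Cytb*, was at 190, 169 and 184 CPM in BirA and 227, 215 and 215 CPM in Nc1Bio, with a log2 fold change of 0.27. Its groups did not overlap, as was so for 18.4% of all genes tested, whereas those of *mt-Cytb* did. *Cyc1* was named for the lowest p of the complex III list, and in the same list *Uqcrh* was at -0.11. The contrast with *mt-Cytb* was therefore picked and not tested.

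Genes for the upkeep and expression of mitochondrial DNA were not called by edgeR in any of the 6 lists. Of the 94 tested, 73 had a log2 fold change above 0, against 49.6% of all genes tested. *Tefm*, an elongation factor of mitochondrial transcription, was at 24.9, 26.2 and 30.5 CPM in BirA and 37.8, 36.1 and 38.3 CPM in Nc1Bio (log2 fold change 0.46, adjusted p = 0.270, edgeR). *Tfb1m* (0.52) and *Mterf1b* (0.92) were next by p in the transcription list (unadjusted p = 0.142 and 0.189, edgeR), and the groups overlapped for both. *Mterf1b* was near the floor, at 1.01, 0.767 and 1.18 CPM in BirA and 2.08, 0.606 and 2.93 CPM in Nc1Bio. In this list 5 of the 17 genes tested had a log2 fold change below 0. Among RNA processing genes, *Elac2*, the nuclease that cuts the 3′ end of tRNAs, had a log2 fold change of 0.28, *Pnpt1* of 0.33 and *Ptcd2* of 0.26. For tRNA maturation, *Trnt1*, which adds the CCA end, was at 0.27, *Trmt5* at 0.39 and *Nsun2* at 0.23. *Sars2*, the seryl-tRNA synthetase of mitochondria, was at 0.47 (adjusted p = 0.289, edgeR), *Kars* at 0.25 and *Rars2* at 0.29, and among translation genes *C1qbp* was at 0.28, *Gfm1* at 0.29 and *Tufm* at 0.13. Below 0 were 4 of 20 processing, 4 of 14 maturation, 5 of 20 synthetase and 2 of 15 translation genes. The lowest of each list were *Fastkd1* at -0.11, *Nsun3* at -0.34, *Lars2* at -0.16 and *Taco1* at -0.14.

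Of the regulators of mitochondrial biogenesis, *Myc* was at 184, 199 and 203 CPM in BirA and 323, 267 and 289 CPM in Nc1Bio. Its groups did not overlap, as was so for 18.4% of all genes tested. The log2 fold change of 0.59 ± 0.10 (SE) was not called by edgeR (adjusted p = 0.109). It was called by edgeR without the low-count filter (adjusted p = 0.0296) and by DESeq2, which applies a low-count filter of its own (adjusted p = 0.000203). *Myc* is a broad growth regulator and not specific to mitochondria. *Nrf1*, a transcription factor for nuclear genes of the respiratory chain, had a log2 fold change of 0.20 and *Pprc1* of 0.23, and neither was called by edgeR or DESeq2. Of the 8 regulators tested, 1 was below 0, *Esrra* at -0.33. Beside these values, the B cell and natural killer cell markers were lower in Nc1Bio, with 48.0 to 77.4 against 128 to 287 and 221 to 297 against 441 to 529 summed CPM, and their part in the nuclear and mitochondrial values was not tested.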

How the data were processed

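RNA was sequenced from DN thymocytes of 3 BirA and 3 Nc1Bio libraries. Per the study's methods, 59-base single reads lost their first 10 bases, were aligned with STAR to GRCm38 and counted with featureCounts, followed by DESeq2. The layout of the deposited tables is not that of featureCounts, and no source used here names the program that wrote them. For each gene the authors deposited counts in whole numbers, split into unique and total reads over the gene, its exons and its introns. Their RPKM and TPM columns were not used.

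Genes were filtered with filterByExpr, scaled by TMM and tested with the quasi-likelihood test of edgeR 4.0.16 in R 4.3.3, genotype being the only term, with Benjamini-Hochberg adjustment over all tested genes and calls at 0.05. CPM in the comparison use TMM-scaled library sizes, whereas shares, per-length levels and marker sums use all reads. DESeq2 1.42.0 and limma-voom (limma 3.58.1) were alternatives, as were RLE size factors, no filter, library sizes without mt- genes, exon reads, the replicate block and leaving out each library. Leaving out erythroid genes, or BirA replicate 1 together with Nc1Bio replicate 3, was chosen after seeing the data. Fits were tested on simulated data. No 2 libraries agreed within sampling noise (smallest chi-square per degree of freedom, 26.5). Nuclear copies were searched with blastn 2.17.0+ in NCBIM37 (80% identity, 100 bases or more). Named were all protein, rRNA and tested tRNA genes, the 3 tRNA genes with most reads and the 3 genes of lowest p in each nuclear list. The members and lists were chosen with earlier results of these data known. *Atp5o*, *2010107E04Rik* and *Prorp* were listed but not matched in the tables.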

Additional observations from a re-analysis of the deposited data

How the results depend on the processing

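No mitochondrial gene was called in either count column under RLE size factors, no low-count filter, DESeq2, limma-voom, library sizes without mt- genes, exon reads, erythroid genes left out, BirA replicate 1 left out along with Nc1Bio replicate 3, or without any single library. The precision was limited by 3 libraries a group and by CVs of up to 61.6% for these genes. The shares of reads kept their difference within the spread between libraries: -1.03 to 0.648 percentage points (unique) and -0.825 to 0.303 (total) when 1 library was left out, and 0.560 and 0.437 with the 2 libraries left out together. Of the nuclear partner genes in unique gene reads, 1 of 171 was called with no low-count filter and 1 of 170 with DESeq2. It was *Myc* in both cases (adjusted p = 0.0296, edgeR, and 0.000203, DESeq2). Among all genes, edgeR without the filter called 11 higher and 145 lower of 20818 in unique gene reads, and DESeq2 called 2.48%. The 33 named nuclear genes kept log2 fold changes above 0 whichever library was left out. They were picked by lowest p in these same libraries, so a steady sign was largely fixed by that choice and lends no support. Of these genes, 10 moved by over 1.5 times: *Tfb1m* (0.287 without BirA replicate 1 to 0.801 without BirA replicate 3), *Nsun2* (0.116 to 0.325, the same libraries), *Mterf1b* (0.441 without Nc1Bio replicate 3 to 1.34 without Nc1Bio replicate 2), *Pprc1* (0.089 without Nc1Bio replicate 1 to 0.351 without Nc1Bio replicate 2), *Cox7a2* (0.122 to 0.279), *Cox7b* (0.0764 to 0.262), *Gfm1* (0.171 to 0.439), *Ndufa7* (0.198 to 0.401), *Sdhb* (0.0572 to 0.190) and *Trmt5* (0.242 to 0.507).

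Whether equal replicate numbers mark paired libraries could not be settled with 3 libraries a group. The deviations of same-numbered libraries correlated at 0.339, 0.117 and -0.136, and those of the other pairs at -0.415 to 0.283. The ratio of *mt-Co3* to *mt-Co1* given above rose from replicate 1 to replicate 3 in both genotypes. With the replicate number as a block, 0 mitochondrial genes were called in unique and 0 in total gene reads, and 0 nuclear partner genes. The block turned the log2 fold change of *mt-Tl1* to 0.112, limma-voom turned it to 0.140, and that of *mt-Ta* went to -0.00114 with RLE size factors and -0.00368 in unique exon reads.

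When 1 library was left out, the log2 fold changes of these genes took both signs: *mt-Atp6* (-0.0984 to 0.394), *mt-Atp8* (-0.131 to 0.436), *mt-Co1* (-0.43 to 0.249), *mt-Co2* (-0.307 to 0.233), *mt-Co3* (-0.116 to 0.315), *mt-Cytb* (-0.432 to 0.237), *mt-Nd1* (-0.163 to 0.247), *mt-Nd2* (-0.432 to 0.156), *mt-Nd3* (-0.342 to 0.153), *mt-Nd4* (-0.652 to 0.107), *mt-Nd4l* (-0.65 to 0.111), *mt-Nd5* (-0.335 to 0.186), *mt-Nd6* (-0.262 to 0.177), *mt-Rnr1* (-0.232 to 0.125), *mt-Rnr2* (-0.243 to 0.116), *mt-Ta* (-0.238 to 0.388), *mt-Te* (-0.0266 to 0.501), *mt-Tl1* (-0.408 to 0.272), *mt-Ts1* (-0.751 to 0.145) and *mt-Ty* (-0.574 to 0.111). Those of *mt-Ty* and *mt-Ts1* are in total gene reads. With BirA replicate 1 left out along with Nc1Bio replicate 3, 11 turned positive: *mt-Tl1* 0.281, *mt-Nd2* 0.0906, *mt-Co1* 0.289, *mt-Co2* 0.263, *mt-Nd4l* 0.0995, *mt-Nd4* 0.135, *mt-Nd5* 0.171, *mt-Nd6* 0.166, *mt-Cytb* 0.288, *mt-Ty* 0.0187 and *mt-Ts1* 0.292. The cause was not tested.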
